A study of Mus musculus with 6 samples.

Results

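The 40 genes described here encode the chaperones, disulfide isomerases, protein export channel, degradation machinery and stress sensors of the endoplasmic reticulum (ER). They were chosen by name, and all 40 are rows of the deposited count table of 24062 gene symbols. All 40 passed the low-count filter and were tested among 15742 genes. The cells were bone marrow cells positive for Kit, the receptor that marks blood stem and progenitor cells. The series description also calls them lineage-negative. The libraries labelled Ints11_KO came from 3 mice that were Mx1Cre+ and carried the floxed Ints11 gene on both alleles. The libraries labelled Ints11_WT came from 3 littermates, with 1 mouse per library. All mice were C57BL/6, and in both genotypes cells were sorted 4 days after injection of poly(I:C), an RNA mimic that induces interferon and through it the Mx1-Cre transgene. Mx1-Cre acts in all cells that respond to interferon, not in blood progenitors alone. The labels used here give neither ages nor whether the WT littermates carried Mx1Cre. INTS11 is the endonuclease of Integrator, a complex that cleaves small nuclear RNAs and other nascent transcripts.

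Proteins that are secreted, stored in granules or placed in membranes enter the ER through the SEC61 channel and fold there with the help of the Hsp70 chaperone BiP, the lectin chaperones calnexin and calreticulin, and disulfide isomerases. Chains that do not fold are sent back to the cytosol and degraded. When unfolded chains accumulate, the sensors IRE1, ATF6 and PERK start the unfolded protein response, in which ATF6 and XBP1 raise transcription of many ER chaperone genes. Myeloid progenitors make large amounts of granule enzymes and so have an active ER.

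Levels are given as CPM, counts relative to each library's total, and scaled by TMM factors, a correction for composition. Total counts were 127011537 to 142983542 in KO and 124074531 to 166860739 in WT libraries. Values per library are given in the order KO_339, KO_340 and KO_345, then WT_341, WT_343 and WT_344. Kit itself had 220.3, 238 and 226 CPM in the KO libraries, against 221, 199 and 214 CPM in the WT libraries. Ints11, listed as Cpsf3l, had 64.3, 58.3 and 60.2 CPM in the KO libraries, against 73.8, 92.3 and 78.9 CPM in the WT libraries (log2 change -0.42 ± 0.10 SE, edgeR adjusted p = 0.0174). The call was lost without KO_340 or KO_345 and with the neutrophil covariate described further on, and counts over the whole gene do not separate the deleted exons from the others. Xist and Y-linked genes marked KO_345, WT_343 and WT_344 as female and the other libraries as male. The libraries also held RNA of maturing granulocytes. The 14 listed markers of mature neutrophils summed to 62300.2, 48217 and 47680.2 CPM in the KO libraries, against 39692, 12736 and 23356 CPM in the WT libraries. In bulk samples, fewer cells of a type and less RNA per cell cannot be told apart.

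The ER folding genes were lower in the KO libraries as a group. With p-values of the edgeR quasi-likelihood test adjusted by Benjamini-Hochberg over all 15742 genes and a threshold of 0.05, 32 of the 40 fell, 1 rose and 7 did not pass. Over all tested genes 35.9% were called, 19.9% lower and 16.0% higher. Strongly expressed genes were called lower more often, and 39 of the 40 members averaged at least 10 CPM. Of the 8963 tested genes with that level, 41.6% were called, 32.0% lower and 9.62% higher. The members had a median log2 change (KO over WT) of -0.71, against 0.01 over all tested genes and -0.15 over those with at least 10 CPM. The changes ran from -1.61 for Sdf2l1 to 0.52 for Dnajb9. In 8 members the fitted log2 change was below -1, while 1.12% of all tested genes were called lower by at least 2-fold.

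Together the 40 genes held 0.830, 0.864 and 0.840% of all counts in the KO libraries, against 1.18, 1.65 and 1.40% in the WT libraries. Every KO library lay below every WT library for 35 of the 40 members, which was so for 28.4% of all tested genes and 43.7% of those with at least 10 CPM. The reverse was so for 2 members, Dnajb9 and Derl3, and for 25.6% of all tested genes. The KO libraries lay close together, with a median coefficient of variation of 4.54% over the members, against 15.7% among the WT libraries. Over all tested genes these medians were 8.02% in KO and 14.7% in WT libraries, and over those with at least 10 CPM they were 5.01% in KO and 10.5% in WT libraries. The members' KO median was thus close to that of genes at their level. WT_343 held the highest level of 34 members, and 33 members had the full order of KO libraries below WT_341, WT_341 below WT_344 and WT_344 below WT_343. Over all tested genes 31.3% peaked in WT_343 and 16.1% had that order, and of genes with at least 10 CPM 46.0% and 26.3%. The median member was 1.36 times as high in WT_343 as in WT_341, against 1.05 times over all tested genes. WT_343 was also the deepest library and WT_341 the shallowest of the WT libraries, and the part of depth in the order was not tested. Without WT_343, 30 members fell and 1 rose, with a median of -0.56, and 15.1% of all tested genes were called lower. Without WT_341, the WT library nearest to the KO libraries, 33 fell and 1 rose, with a median of -0.82. In that fit 26.6% of all tested genes were called lower, against 19.9% with all libraries.

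**Figure D1:**
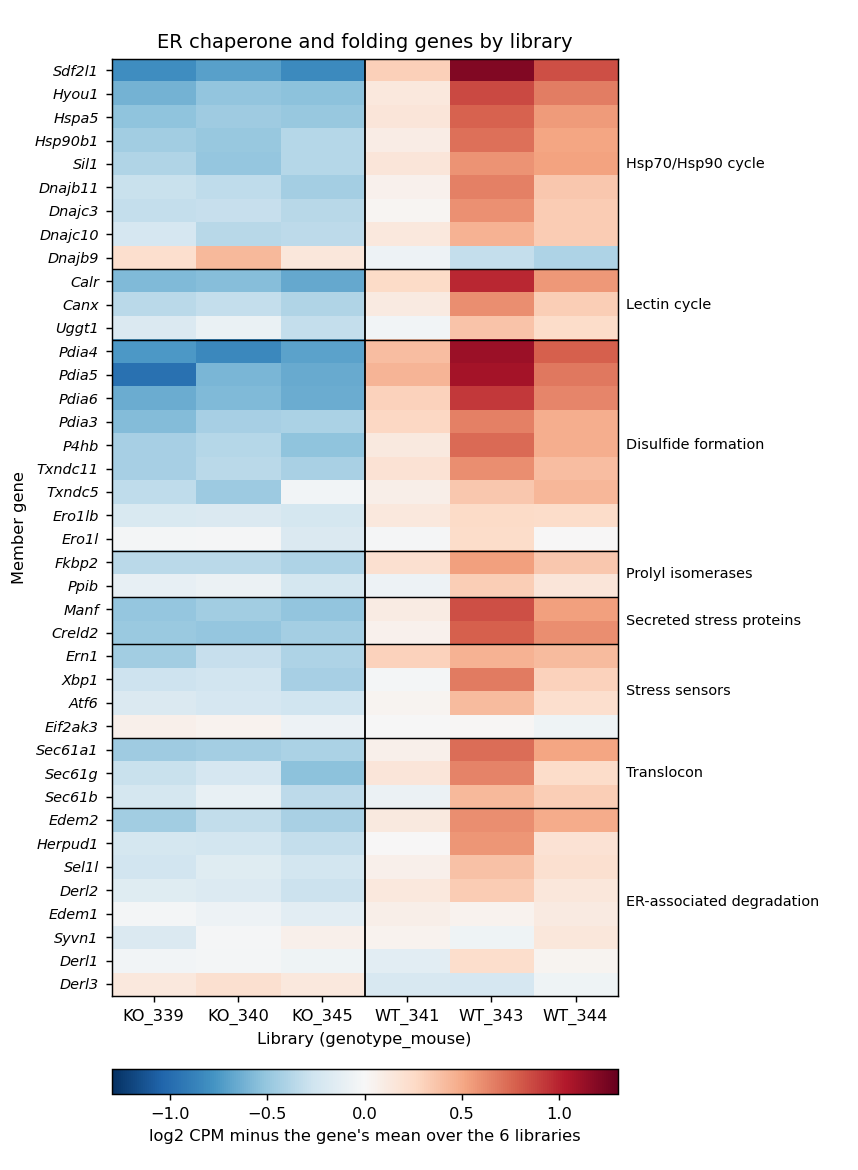
Each row is 1 of the 40 genes, grouped by role and sorted by log2 change, and each column is a library, with 3 KO libraries left of 3 WT libraries. Colour gives log2 CPM minus the gene's mean over the 6 libraries, from blue (low) to red (high). The KO columns are blue and much alike in most rows, WT_343 is the darkest red column, and Dnajb9 and Derl3 run the other way.

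Most members kept their direction within each sex. In males (KO_339 and KO_340 against WT_341) the median log2 ratio over the members was -0.44, and in females (KO_345 against WT_343 and WT_344) it was -0.85. Both ratios were below 0 for 35 of the 40 members. These are the same 35 in which every KO library lay below every WT library, so the count follows from that. The female ratio was the lower one for 37 of the 40 members. These ratios have a single library on one side and no test, and neither count is given over all tested genes. The male ratio rests on WT_341, the lowest WT library for the 33 members with the full order given above. A difference between the sexes thus cannot be told apart from the level of WT_341. With sex as a covariate 30 members fell and 1 rose, and 17.3% of all tested genes were called lower.

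The members were chosen by name, without a search of promoter sequences. Since ATF6 and XBP1 raise transcription of many ER chaperone genes, the share with their motifs is not independent of that choice. The ER stress element (ERSE) is a promoter motif whose CCAAT part binds NF-Y and whose CCACG part binds ATF6 or XBP1. Its letters (CCAAT, any 9 bases, then CCACG) were searched on both strands of the RefSeq promoters of GRCm38.p6, each 250 bases before and 50 bases after a gene start. Of the members, 34 had a promoter there, and 10 of those (29.4%) held an exact ERSE, against 37 of all 27025 genes (0.137%). With at most 1 mismatch in its 10 fixed letters, the ERSE was present for 17 of 34 members and 1.72% of all genes. The related ERSE-II (ATTGG, any base, CCACG) was found for Herpud1 and Dnajb11 and for 0.0444% of all genes. The XBP1 site core TGACGTGG was found for Txndc5 and Txndc11 and for 0.714% of all genes. ERSE and ERSE-II contain CCACG and the core contains its reverse complement, so the motifs overlap in part. CCACG alone was in promoters of 27 members (79.4%) and of 35.5% of all genes. A match describes these letters only, not binding.

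The exact sites are shown because 10 of the 34 members with a promoter hold one. Each is written 5' to 3' in the direction of the motif, with the fixed letters in capitals, its GRCm38.p6 position, and whether it lies on the gene's strand or the opposite one.
Hspa5, chr2:34772025-34772043, gene strand: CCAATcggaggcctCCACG
Hsp90b1, outer site, chr10:86705638-86705656, gene strand: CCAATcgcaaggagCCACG
Hsp90b1, inner site, chr10:86705533-86705551, opposite strand: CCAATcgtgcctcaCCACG
Dnajc3, chr14:118937827-118937845, gene strand: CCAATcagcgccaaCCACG
Calr, chr8:84847075-84847093, opposite strand: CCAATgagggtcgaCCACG
Canx, chr11:50325800-50325818, gene strand: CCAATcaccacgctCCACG
Pdia6, chr12:17266491-17266509, gene strand: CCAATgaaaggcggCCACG
Ero1lb, chr13:12565682-12565700, opposite strand: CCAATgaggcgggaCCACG
Creld2, chr15:88819520-88819538, opposite strand: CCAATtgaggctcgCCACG
Syvn1, chr19:6046532-6046550, gene strand: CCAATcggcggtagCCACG
Derl3, chr10:75893242-75893260, opposite strand: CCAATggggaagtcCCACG

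Of the members with an exact site, 8 of 10 fell, with a median log2 change of -0.81, and of the 24 with a RefSeq promoter but no exact site, 19 fell and 1 rose, with a median of -0.64. The difference was not tested. Syvn1 and Derl3 hold a site and did not pass the test. The sites lay between 44 and 212 bases before the RefSeq start, and that of Hspa5 falls inside an exon of another annotated transcript start in GENCODE M21. Over all tested genes 19.9% were called lower and 16.0% higher. Among the 27 other genes with an exact ERSE, 11 were tested, of which 2 (18.2%) fell and 4 rose. One of those that fell, Alg12, a mannosyltransferase of glycan assembly, starts beside Creld2 on the other strand, and the Creld2 site lies in the promoters of both. Alg12 had 8.898, 8.79 and 9.01 CPM in the KO libraries, against 13.9, 14.5 and 13.2 CPM in the WT libraries (log2 change -0.64 ± 0.10 SE, edgeR adjusted p = 0.00516). The other that fell, Xlr3a (log2 change -1.68 ± 0.53, edgeR adjusted p = 0.0438), which has near-identical copies beside it so that its counts are uncertain, had 0.398, 0.205 and 0.112 CPM in the KO libraries, against 1.19, 0.538 and 0.578 CPM in the WT libraries. Its call was lost with upper-quartile factors, with library totals and on leaving out any 1 library but KO_339. Those that rose were Adcy3 (1.58-fold, fitted KO over WT), Calr4 (2.75-fold), Ptgdr2 (3.03-fold) and Zfp57 (3.12-fold), and with the neutrophil covariate described further on only Ptgdr2 kept its call. The call of Calr4, at most 0.1897 CPM in any library, was also lost in 8 other alternatives. Spats2l and Zfp57 also stayed below 1 CPM in every library. Of the members, 39 of 40 averaged at least 10 CPM, so the levels compared are unlike.

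The promoters of Pdia6 and Calr, which had the smallest adjusted p among the members with an exact site, are shown up to the annotated first exon, in the direction of the gene, with the ERSE letters in capitals. In Calr the motif reads on the opposite strand.
Pdia6, chr12:17266339-17266544, forward strand, 206 bases: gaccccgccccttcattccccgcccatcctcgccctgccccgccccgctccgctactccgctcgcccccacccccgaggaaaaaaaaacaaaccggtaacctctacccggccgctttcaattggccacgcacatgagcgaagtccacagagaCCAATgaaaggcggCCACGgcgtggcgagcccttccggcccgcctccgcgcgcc
Calr, chr8:84846935-84847181, reverse strand, 247 bases: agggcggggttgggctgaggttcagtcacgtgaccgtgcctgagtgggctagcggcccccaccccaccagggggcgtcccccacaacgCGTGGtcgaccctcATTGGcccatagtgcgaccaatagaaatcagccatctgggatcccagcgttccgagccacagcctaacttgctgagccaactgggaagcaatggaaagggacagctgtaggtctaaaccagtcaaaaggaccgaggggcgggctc

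The BiP chaperone cycle fell nearly as a whole, with 8 of 9 genes lower and 1 higher. Hspa5, which encodes BiP, the main Hsp70 of the ER, had 758, 791 and 773 CPM in the KO libraries, against 1210.1, 1857 and 1593 CPM in the WT libraries. The highest KO library stayed under the lowest WT library, and the fitted KO level was 49.8% of WT (log2 change -1.01 ± 0.15 SE, edgeR adjusted p = 0.00523). Hsp90b1, which encodes the ER Hsp90 GRP94, needed for many integrins and Toll-like receptors, had 674, 654 and 713 CPM in the KO libraries, against 987, 1521 and 1313 CPM in the WT libraries (log2 change -0.90 ± 0.16). Hyou1, a large Hsp70 relative that exchanges nucleotide on BiP, had 252, 269.96 and 267 CPM in the KO libraries, against 423, 698 and 610.4 CPM in the WT libraries (log2 change -1.13 ± 0.17, adjusted p = 0.00515). Sil1, another nucleotide exchange factor of BiP, averaged 17.7 ± 0.895 CPM in KO and 31.99 ± 4.79 CPM in WT libraries (SD, n = 3 each, log2 change -0.85). In each of these genes the KO libraries were alike and WT_343 was highest.

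Sdf2l1, a partner of BiP and its J proteins that keeps client proteins soluble, showed the largest fall of the 40 members. It had 46.2, 49.5 and 45.6 CPM in the KO libraries, against 100.1, 186 and 144 CPM in the WT libraries. The groups did not overlap, and the KO level was 32.8% of WT (log2 change -1.61 ± 0.20 SE, edgeR adjusted p = 0.00344). The J proteins that hand clients to BiP moved in different directions. Dnajb11 (ERdj3) averaged 108 ± 5.75 CPM in KO and 178 ± 36.9 CPM in WT libraries (log2 change -0.72), Dnajc3 (p58IPK) 182 ± 4.13 CPM in KO and 288 ± 56.2 CPM in WT libraries (-0.66) and Dnajc10 (ERdj5, a disulfide reductase) 118 ± 6.12 CPM in KO and 181 ± 20.03 CPM in WT libraries (-0.62), all with SD and n = 3 each. Dnajb9 (ERdj4), a J protein that in hamster cells brings BiP to IRE1 and represses it, was the 1 member that rose. It had 67.2, 77.4 and 64.02 CPM in the KO libraries, against 55.2, 46.5 and 43.7 CPM in the WT libraries. Here the lowest KO library exceeded the highest WT library (log2 change 0.52 ± 0.12 SE, edgeR adjusted p = 0.0145). The call was lost without KO_340, without WT_344 or with the neutrophil covariate described further on, and its adjusted p ran from 0.00174 to 0.173 over 13 alternative settings.

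**Figure D2:**
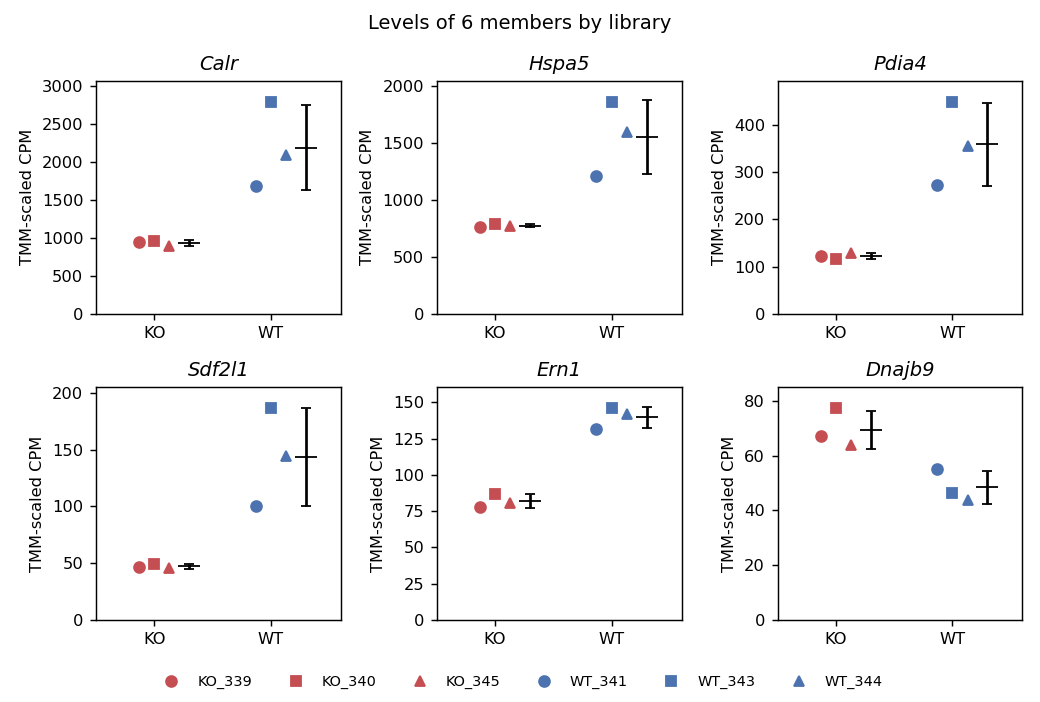
TMM-scaled CPM of 6 members in each library, KO left of WT, with the mean and SD of each genotype drawn at the right of its points (n = 3 each). Calr, Hspa5, Pdia4, Sdf2l1 and Ern1 are lower in every KO library than in any WT library, Dnajb9 is higher, and WT_343 is the highest point in the panels of the genes that fell.

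All 3 genes of the lectin cycle, which holds glycoproteins until they fold, were called lower. Calr, the soluble lectin calreticulin and the most abundant member, had 946, 962 and 889 CPM in the KO libraries, against 1683, 2785 and 2091 CPM in the WT libraries. No KO library reached the lowest WT library, and the KO level was 42.6% of WT (log2 change -1.23 ± 0.18 SE, edgeR adjusted p = 0.00467). Canx, its membrane-bound counterpart calnexin, had 762, 785 and 740.1 CPM in the KO libraries, against 1055, 1477 and 1210.4 CPM in the WT libraries (log2 change -0.71 ± 0.13, adjusted p = 0.00855). Uggt1, the glucosyltransferase that marks unfolded glycoproteins for another round, averaged 384 ± 28.8 CPM in KO and 506 ± 70.4 CPM in WT libraries (SD, n = 3 each, log2 change -0.40 ± 0.12, adjusted p = 0.037). The call of Uggt1 was lost with upper-quartile factors (log2 change -0.26), library totals only, a filter of 1 CPM in 3 libraries, sex as a covariate, with the neutrophil covariate, and on leaving out any 1 library but WT_341.

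Of the 9 genes of disulfide formation, 8 fell and 1 did not pass. The isomerase genes Pdia4 (ERp72) and Pdia5 came next to Sdf2l1 in size. Pdia4 had 123, 116 and 128 CPM in the KO libraries, against 273, 449 and 355 CPM in the WT libraries (log2 change -1.55 ± 0.17 SE, edgeR adjusted p = 0.00268). Pdia5 had 7.18, 9.29 and 8.92 CPM in the KO libraries, against 19.1, 29.7 and 22.6 CPM in the WT libraries (log2 change -1.49 ± 0.18). Even the lowest WT library lay well above the highest KO library for both genes. Pdia6, an isomerase that associates with BiP, had 226, 237 and 225 CPM in the KO libraries, against 433, 668 and 549 CPM in the WT libraries (log2 change -1.26 ± 0.15). Pdia3 (ERp57), which works with the lectins and in class I antigen loading, had 443, 487 and 493 CPM in the KO libraries, against 789.9, 1032 and 905 CPM in the WT libraries (log2 change -0.94 ± 0.12, adjusted p = 0.00329). P4hb, the archetypal protein disulfide isomerase and a subunit of collagen prolyl hydroxylase, had 832, 866 and 777 CPM in the KO libraries, against 1223, 1861 and 1548 CPM in the WT libraries (log2 change -0.90 ± 0.15). The KO libraries stayed below all WT libraries in each of these genes.

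Smaller falls were seen for Txndc11 and Txndc5. Txndc11, which in human cells forms a complex with EDEM2, had 40.97, 43.4 and 41.3 CPM in the KO libraries, against 63.1, 84.3 and 73.2 CPM in the WT libraries (log2 change -0.81 ± 0.11). Txndc5, the isomerase ERp46, had 44.9, 40.7 and 55.05 CPM in the KO libraries, against 59.6, 72.1 and 76.2 CPM in the WT libraries (log2 change -0.56 ± 0.14), highest in WT_344. Its call was lost without KO_339, KO_340 or WT_344 (adjusted p 0.00138 to 0.28 over the alternatives, edgeR and DESeq2). Of the oxidases that recharge the isomerases, 1 fell and 1 did not pass. Ero1lb fell, with 38.4, 38.6 and 37.6 CPM in the KO libraries, against 48.5, 52.6 and 51.9 CPM in the WT libraries (log2 change -0.42 ± 0.07, adjusted p = 0.00765). Ero1l, the more abundant oxidase here, had 273, 275 and 245 CPM in the KO libraries, against 276, 329 and 279 CPM in the WT libraries and did not pass (log2 change -0.16 ± 0.10, edgeR adjusted p = 0.234). KO_340 and WT_341 were almost equal, and WT_343 alone stood clearly higher.

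Among the smaller classes, the prolyl isomerase gene Fkbp2 had 20.3, 20.2 and 19.6 CPM in the KO libraries, against 29.8, 37.4 and 32.9 CPM in the WT libraries and fell (log2 change -0.74 ± 0.10, edgeR adjusted p = 0.00441). Ppib (cyclophilin B), which acts on collagen and other clients, had 60.2, 61.5 and 55.5 CPM in the KO libraries, against 62.2, 81.1 and 72.2 CPM in the WT libraries and did not pass (log2 change -0.28 ± 0.11, adjusted p = 0.0746). It passed without WT_341 (log2 change -0.39), and 26.0% of its 75-base stretches also occur in other annotated transcripts, mainly those of Snx22 on the opposite strand. Both secreted proteins of ER stress fell. Manf, which can protect stressed cells, had 86.5, 89.4 and 85.8 CPM in the KO libraries, against 132, 219 and 177 CPM in the WT libraries (log2 change -1.01 ± 0.17), and Creld2, whose secretion rises with ER stress, had 33.4, 32.99 and 34.4 CPM in the KO libraries, against 48.5, 79.95 and 70.9 CPM in the WT libraries (log2 change -0.98 ± 0.17). In both, WT_341 was nearest to the KO libraries and WT_343 farthest.

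Of the 4 genes for the stress sensors and their messenger, 3 fell. Ern1, which encodes the sensor kinase and endonuclease IRE1, had 78.1, 86.9 and 80.9 CPM in the KO libraries, against 132, 146 and 142 CPM in the WT libraries. It had the smallest adjusted p of the members, and its WT libraries lay close together (log2 change -0.77 ± 0.08 SE, edgeR adjusted p = 0.00218). Xbp1, whose messenger RNA IRE1 splices to make an active transcription factor, had 155, 157 and 138 CPM in the KO libraries, against 183, 298 and 230.2 CPM in the WT libraries (log2 change -0.66 ± 0.17, adjusted p = 0.0217). The call of Xbp1 was lost without KO_339, KO_345 or WT_344 (adjusted p 0.00122 to 0.434 over the alternatives). Counts per gene do not separate spliced from unspliced Xbp1, so IRE1 activity was not measured. Atf6, the sensor that is cleaved to release a transcription factor, had 105, 102 and 99.6 CPM in the KO libraries, against 122, 158 and 138 CPM in the WT libraries (log2 change -0.45 ± 0.10, edgeR adjusted p = 0.0147). Eif2ak3, which encodes the sensor kinase PERK, had 57.3, 56.5 and 52.3 CPM in the KO libraries, against 54.4, 55.1 and 52.5 CPM in the WT libraries (log2 change 0.04 ± 0.07, adjusted p = 0.719). Its groups overlapped and all 6 libraries were within a narrow range.

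The 3 subunit genes of the SEC61 translocon were called lower. Sec61a1, the channel subunit, had 224, 228 and 233 CPM in the KO libraries, against 323, 512 and 439.8 CPM in the WT libraries (log2 change -0.90 ± 0.16 SE, edgeR adjusted p = 0.00734). Sec61g and Sec61b encode the small subunits, and their difference from Sec61a1 was not tested. Sec61g had 26.4, 27.8 and 22.4 CPM in the KO libraries, against 36.1, 50.7 and 38.3 CPM in the WT libraries (log2 change -0.71 ± 0.15), and Sec61b had 83.6, 91.7 and 77.3 CPM in the KO libraries, against 92.7, 132 and 122 CPM in the WT libraries (-0.46 ± 0.14, adjusted p = 0.0369). Both were lowest in KO_345 and highest in WT_343, and the groups did not overlap. Of their 75-base stretches 13.7% and 10.1% occur in other annotated transcripts, so their counts are less certain. The Sec61b call was lost under the same settings as that of Uggt1.

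In ER-associated degradation 4 of 8 genes fell and 4 did not pass. Edem2, a mannosidase that starts glycan trimming for degradation, fell most, with 62.99, 69.2 and 64.3 CPM in the KO libraries, against 94.2, 131 and 121 CPM in the WT libraries (log2 change -0.82 ± 0.12 SE, edgeR adjusted p = 0.00515). Its relative Edem1 had 330.05, 322 and 306 CPM in the KO libraries, against 354, 346 and 364 CPM in the WT libraries and did not pass (log2 change -0.15 ± 0.07, adjusted p = 0.13), although the groups did not overlap. Herpud1, a membrane scaffold of the degradation complex, had 80.6, 79.9 and 76.3 CPM in the KO libraries, against 94.9, 141 and 108 CPM in the WT libraries (log2 change -0.54 ± 0.14), and its call was lost on leaving out any 1 KO library or WT_344 (adjusted p 0.00274 to 0.439 over the alternatives, edgeR and DESeq2). Sel1l, the adaptor of the ubiquitin ligase HRD1, averaged 151 ± 5.57 CPM in KO and 205 ± 22.9 CPM in WT libraries (SD, n = 3 each, log2 change -0.44), and its call was lost without KO_339. Syvn1, which encodes HRD1, had 45.03, 50.7 and 53.7 CPM in the KO libraries, against 52.7, 49.2 and 56.7 CPM in the WT libraries and did not pass, with overlapping groups (log2 change -0.09 ± 0.10, adjusted p = 0.497). Of the derlins, which help move chains to the cytosol, Derl2 had 38.8, 38.4 and 35.6 CPM in the KO libraries, against 47.5, 54.6 and 47.9 CPM in the WT libraries and fell (log2 change -0.41 ± 0.09, adjusted p = 0.0135, and -0.27 with upper-quartile factors). Derl1 had 137, 138 and 135 CPM in the KO libraries, against 128, 165 and 144 CPM in the WT libraries and overlapped between genotypes (adjusted p = 0.482). Derl3, known as a derlin of secretory cells, stayed low at 1.49, 1.57 and 1.499 CPM in the KO libraries, against 1.18, 1.17 and 1.31 CPM in the WT libraries and did not pass (log2 change 0.32 ± 0.19, adjusted p = 0.205).

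**Figure D3:**
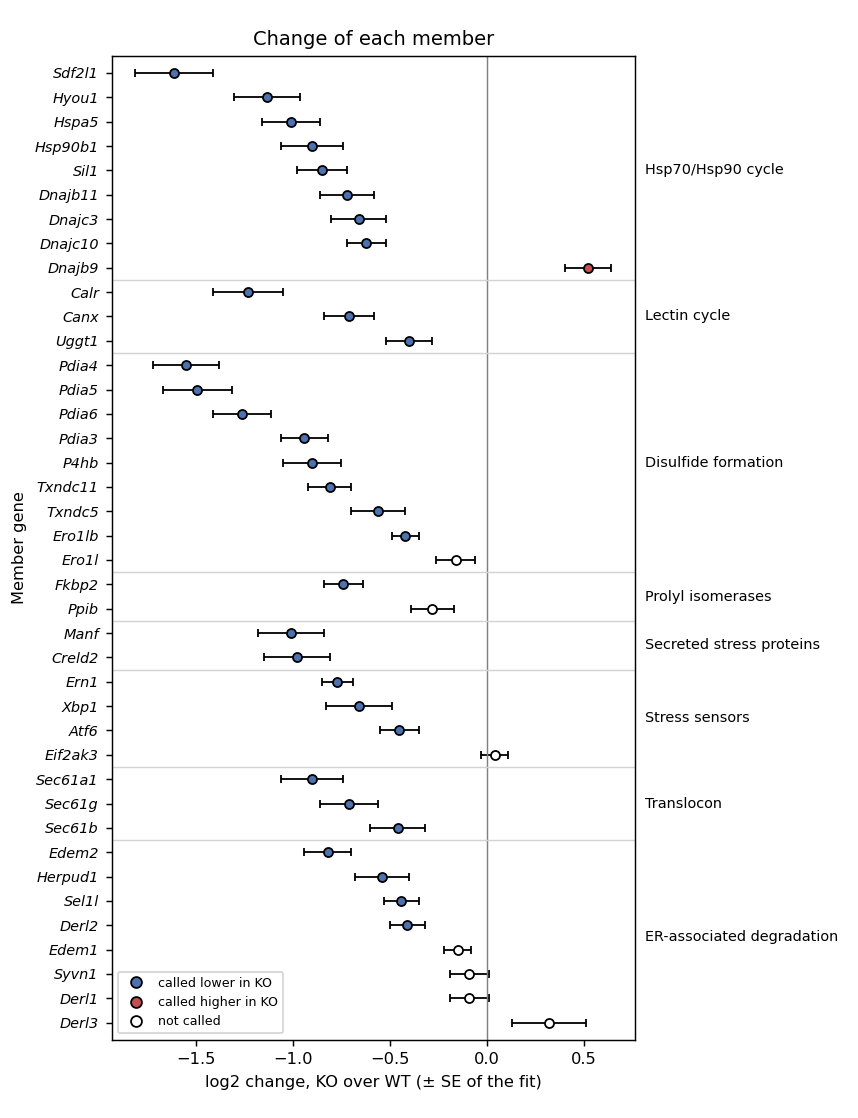
Log2 change (KO over WT) of each member with the standard error of the edgeR fit, grouped by role. Filled points passed an adjusted p of 0.05 over all genes tested, blue for lower and red for higher in KO, and open points did not pass. Sdf2l1, Pdia4 and Pdia5 lie farthest to the left, and open points gather in ER-associated degradation.

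Per kilobase of annotated exon the order of the members was much the same in both genotypes. Calr led with 324 CPM per kb in KO and 759 CPM per kb in WT libraries, followed by P4hb with 288 CPM per kb in KO and 539.7 CPM per kb in WT and Hspa5 with 183 CPM per kb in KO and 367 CPM per kb in WT. Hsp90b1 had 169 CPM per kb in KO and 316 CPM per kb in WT, Canx 162 CPM per kb in KO and 266 CPM per kb in WT and Pdia3 151 CPM per kb in KO and 289.5 CPM per kb in WT. At the low end were Pdia5 with 3.05 CPM per kb in KO and 8.59 CPM per kb in WT and Derl3 with 0.763 CPM per kb in KO and 0.611 CPM per kb in WT. Some members changed place with the fall: Pdia4 ranked 9 of 40 in KO and 7 in WT libraries, Sdf2l1 13 and 9, while Dnajb9, which rose, ranked 21 in KO and 28 in WT libraries.

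Other genes of the secretory pathway, from lists set by function, were counted in the same fit, in which 19.9% of all tested genes were lower and 16.0% higher. These and the further lists below were chosen with earlier results of these data known. Of tested genes with at least 10 CPM, 32.0% were lower and 9.62% higher, with a median log2 change of -0.15. In N-glycosylation, which attaches and trims sugar chains, 22 of 27 fell and the rest did not pass (median log2 change -0.64). Alg8, a glucosyltransferase of glycan assembly, had 16.97, 16.6 and 17.98 CPM in the KO libraries, against 32.6, 38.99 and 32.4 CPM in the WT libraries (log2 change -1.01 ± 0.10, edgeR adjusted p = 0.00241), and Ganab, the catalytic subunit of glucosidase II, fell by 0.78 and Dpagt1, which starts the glycan, by 0.68 on the log2 scale. In signal peptide recognition and translocation 15 of 22 fell and the rest did not pass (median log2 change -0.57). Srp72 of the signal recognition particle had 126, 122 and 128 CPM in the KO libraries, against 206, 287 and 233 CPM in the WT libraries (log2 change -0.95 ± 0.12), and Sec63, the translocon partner of BiP (-0.57), and the signal peptidase subunit Spcs2 (-0.84) also fell. In export to the Golgi 11 of 20 fell and the rest did not pass (median log2 change -0.35). Lman1, a cargo receptor for coagulation factors, led with 91.1, 93.4 and 89.2 CPM in the KO libraries, against 162, 263 and 207 CPM in the WT libraries (log2 change -1.21 ± 0.16). Among other degradation factors 11 of 19 fell and the rest did not pass (median log2 change -0.37), with Faf2 (-0.79) and the lectin Os9 (-0.52) first by adjusted p.

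Chaperones outside the ER also fell. In the cytosol 16 of 27 fell and the rest did not pass (median log2 change -0.44), with Hsp90aa1 (-0.77) and the chaperonin subunit Cct6a (-0.82) first by adjusted p, and both calls were lost with the neutrophil covariate. In mitochondria 12 of 14 fell and the rest did not pass (median log2 change -0.57), led by Trap1, the mitochondrial Hsp90, with 75.5, 79.4 and 79.9 CPM in the KO libraries, against 152, 219 and 179.8 CPM in the WT libraries (log2 change -1.23 ± 0.13, edgeR adjusted p = 0.00242). A difference between the compartments was not tested. The integrated stress response, the arm below PERK and other eIF2 kinases, was mixed: 7 of 23 (30.4%) fell and 1 rose (median log2 change -0.38). Of tested genes with at least 10 CPM 32.0% were called lower, so this share was not above theirs. Ddit4, an inhibitor of mTORC1, was the 1 that rose, with 29.9, 30.7 and 31.1 CPM in the KO libraries, against 9.48, 14.9 and 11.7 CPM in the WT libraries (log2 change 1.34 ± 0.16, adjusted p = 0.00327). The serine synthesis genes Phgdh (-0.91) and Psat1 (-1.11) fell, both highest in WT_343. Both calls were lost with the neutrophil covariate and on leaving out any 1 KO library, that of Phgdh also without WT_344 and that of Psat1 with sex as a covariate.

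Markers of granulocyte stages also differed between genotypes, in both directions. Only the mature neutrophil markers were fitted as a covariate, as described below. The part of any of these markers in the results was not tested apart from genotype. Over all tested genes 19.9% were lower and 16.0% higher, and over those with at least 10 CPM 32.0% and 9.62%. Of 10 primary granule and promyelocyte markers 7 fell and 1 rose. Their summed level was 10253, 11922 and 9729 CPM in the KO libraries, against 18366, 24138 and 21537 CPM in the WT libraries. Mpo, the granule peroxidase, had 5338, 5937 and 5147 CPM in the KO libraries, against 10492, 14288 and 12172 CPM in the WT libraries. Within the WT libraries this sum, of which Mpo was the largest part, had the order of the ER members, highest in WT_343 and lowest in WT_341. Of the 10 markers, 5 had the full order of KO libraries below WT_341, WT_341 below WT_344 and WT_344 below WT_343. Elane and Prtn3 were highest in WT_344, and Fcnb had the reverse order among the WT libraries. The mature neutrophil markers ran the other way: 6 of 14 rose and the rest did not pass, and the sum was highest in the KO libraries and lowest in WT_343. None of the 14 was at 0 in any library, and S100a9 alone had 16074, 12939 and 12137 CPM in the KO libraries, against 10868, 3813 and 6123 CPM in the WT libraries. Of 8 monocyte markers 6 fell and the rest did not pass, and of 7 eosinophil markers 7 rose. Of 8 mast cell and basophil markers 7 rose, of 10 megakaryocyte markers 6 rose and of 10 T and NK cell markers 4 rose and 1 fell. Of the T and NK cell markers, Cd3g, which rose, had at most 1.33 CPM. Nkg7, which fell, had at least 181 CPM in every library and made up most of that list's level. Of 10 progenitor markers 6 rose and 1 fell, and Kit, also on that list, did not pass. Of 11 erythroid markers 1 fell, of 8 macrophage markers 1 rose and of 10 stromal markers 3 rose. The 10 B cell markers, with a median log2 change of 0.73, did not pass. Plasma cells, another cell type rich in ER, had low marker levels, and the summed level of 9 markers was 71.1, 56.6 and 84.5 CPM in KO and 66.8, 43.5 and 46.5 CPM in WT libraries, lowest in WT_343. Of these 2 rose and 1 fell, and the 1 that fell, Fkbp11, a prolyl isomerase of the ER, ran against the sum, with 4.28, 4.02 and 5.61 CPM in the KO libraries, against 7.12, 15.96 and 12.2 CPM in the WT libraries.

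With the mean level of the neutrophil markers as a covariate, a setting chosen after the data were seen, 13 members fell, the median log2 change was -0.36 against -0.71, and 4.92% of all tested genes were called lower. Since the covariate itself differs between KO and WT libraries, this fit can remove genotype differences too. The 13 were Hspa5, Hyou1, Sdf2l1, Calr, Pdia3, Pdia4, Pdia5, Pdia6, Txndc11, Fkbp2, Manf, Ern1 and Edem2, and these also passed in the 12 other alternative settings, with adjusted p of at most 0.0376 (edgeR and DESeq2). The other 19 genes that fell and Dnajb9 lost their call in this fit. The changes that shrank least among the 13 were those of Ern1 (-0.65 with and -0.77 without the covariate), Pdia3 (-0.64 and -0.94) and Fkbp2 (-0.51 and -0.74). Those of 9 shrank by over 1.5 times, led by Manf (-0.48 and -1.01) and Hyou1 (-0.60 and -1.13), and followed by Hspa5 (-0.56 and -1.01), Edem2 (-0.46 and -0.82), Calr (-0.70 and -1.23), Sdf2l1 (-0.94 and -1.61), Txndc11 (-0.51 and -0.81), Pdia6 (-0.80 and -1.26) and Pdia5 (-0.98 and -1.49).

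**Figure D4:**
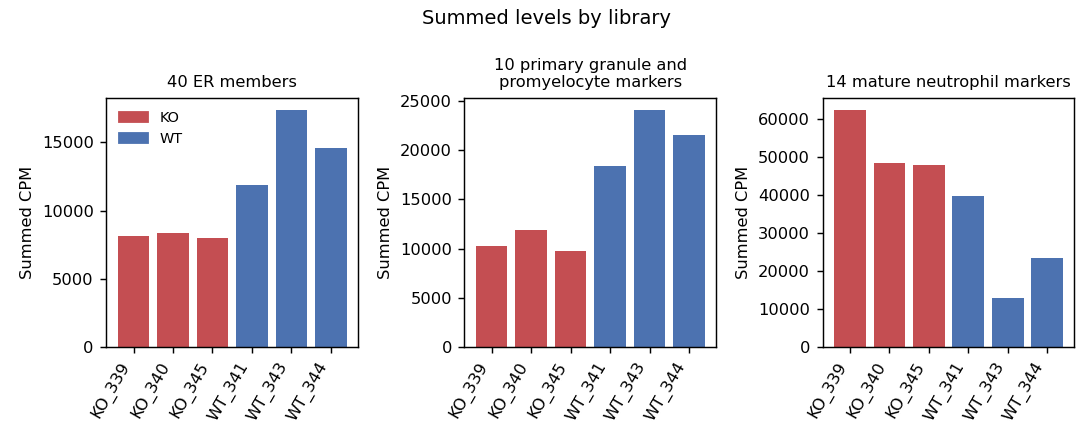
Summed TMM-scaled CPM in each library, KO in red left of WT in blue, for the 40 ER members, 10 primary granule and promyelocyte markers and 14 mature neutrophil markers. The members sum to 8131, 8350.3 and 7990.3 CPM in the KO libraries, against 11859, 17399 and 14623 CPM in the WT libraries. The sum of the granule markers, mostly Mpo in the WT libraries, follows the same order among WT libraries, and that of the neutrophil markers the reverse order.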

How the data were processed

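Messenger RNA of Kit-positive bone marrow cells was measured in 6 libraries. The authors deposited raw read counts per gene symbol, which are not normalized. Per the submitters' processing notes FastQC, Trimmomatic, STAR and HTSeq were used with build mm10, and per the labels' protocols the libraries were strand-specific and paired. Not given in the sources used here are the annotation, the strand setting of the counting and the treatment of reads with several positions, so genes with antisense partners are less certain. Exons of 14 members overlap another gene's.

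Groups came from the sample titles. The test was edgeR's quasi-likelihood test (version 4.0.16, R 4.3.3) with TMM factors, robust dispersion estimates and the filterByExpr rule (minimum count 10, minimum total 15), with Benjamini-Hochberg adjustment over 15742 genes and a threshold of 0.05. Errors of log2 changes are the fit's standard errors, and errors of levels are the SD of 3 libraries. Alternatives used DESeq2 1.42.0, other scaling, other filters, covariates and single libraries left out.

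The members, lists and settings were chosen with earlier results of these data known. All 40 members are described, with up to 4 genes of each other list by adjusted p. One mouse gave each library, and no batch is labelled. The test was checked on simulated counts in which few genes changed. There it missed many changes of 2-fold or less and some of 4-fold. Far more genes were called in the real data, so the share missed there does not carry over to the members. A gene that did not pass may still differ. Positions come from GENCODE M21 (GRCm38, the assembly of mm10), in which all 40 symbols were found, and promoters from RefSeq GRCm38.p6.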

Additional observations from a re-analysis of the deposited data

How the results depend on the processing

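Over all tested genes the median log2 change was 0.01 and 44.5% of calls were higher. Upper-quartile factors gave 0.15 and 64.2%, and scaling by library totals 0.11 and 58.8%. The members' medians were then -0.57 and -0.61, and 30 fell and 1 rose in both. Of all tested genes 12.3% and 14.1% were called lower there, against 19.9% in the main fit. DESeq2 and no low-count filter gave 32 lower and 1 higher, and a filter of 1 CPM in 3 libraries and sex as a covariate gave 30 and 1 each. In that order, 21.1%, 16.7%, 19.7% and 17.3% of all tested genes were called lower in these fits. WT_343 was highest for 34 members with TMM, 33 with upper-quartile factors, 34 with library totals and 34 with DESeq2 size factors. With the mature neutrophil covariate 1229 genes were called in all and 13 members, 13 lower and 0 higher. The cause of these losses was not tested. Leaving out single libraries gave 2302 (without KO_339) to 7879 (without WT_341) calls over all genes, 27 to 34 member calls, 26 to 33 lower and 0 to 1 higher. Of all tested genes 7.95% (without KO_339) to 26.6% (without WT_341) were called lower. Changes of sign were seen only in genes that were not called: Ero1l (0.02 with the covariate), Syvn1 (0.05 with upper-quartile factors, 0.01 with library totals, and from -0.14 to 0.01 without single libraries, positive without KO_339) and Derl1 (0.05 and 0.01 in the same scalings, 0.17 with the covariate and from -0.19 to 0.00 without single libraries, highest without WT_343). No paired analysis was possible because the mouse numbers are not shared between genotypes. Derl3 rests on the fewest counts of the members, and 3 mice per genotype limit all tests.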
